A study of Mus musculus with 8 samples.

Results

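The 7 genes described here belong to the synthesis of cholesterol: Hmgcs1, Idi1, Sqle, Lss, Cyp51 and Dhcr7 encode enzymes of the pathway, and Srebf2 encodes its main transcription factor. They were chosen by symbol and were all found, 7 of the 56748 genes of the deposited tables. RNA was taken from whole skin of 8 male mice at 35 weeks of age, 1 library per mouse. The NPY-tet group held 3 mice of the strain B6;129S4-Npytm2Rpa/J with both copies of Npy carrying the tet allele (NPY tet/tet), and 5 of their siblings without it (NPY +/+) formed the wild-type group. No mouse was treated, per the labels, which do not name the cells in which the allele acts. Whole skin mixes epidermis, hair follicles, sebaceous glands, dermis, fat and muscle. In such bulk RNA, fewer cells of a type and less RNA per cell cannot be told apart.

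Cholesterol is built from acetyl-CoA through mevalonate, isoprenoid units, squalene and lanosterol. When sterols in the endoplasmic reticulum are scarce, Scap carries the SREBP-2 protein to the Golgi, where proteases free its transcription factor domain, which then raises the enzyme genes and Srebf2 itself; Insig proteins hold the complex back when sterols are plentiful. In skin, epidermal cells need cholesterol for the lipid barrier of the outer layer, and sebocytes make sterols and other lipids for sebum.

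SREBP-2 binds sterol regulatory elements in promoters, beside CCAAT boxes bound by NF-Y and GC boxes bound by Sp1. The 250 bases before the annotated start of 4 of the genes are shown, because Hmgcs1 and Srebf2 hold the sterol element core and because Lss and Cyp51 were the pair whose levels followed each other most closely. The sequences are from RefSeq in the build GRCm38.p6, 5′ to 3′ on the gene's strand, and capitals mark the 3 motifs.
Hmgcs1 (chr13:119690101-119690350, plus strand): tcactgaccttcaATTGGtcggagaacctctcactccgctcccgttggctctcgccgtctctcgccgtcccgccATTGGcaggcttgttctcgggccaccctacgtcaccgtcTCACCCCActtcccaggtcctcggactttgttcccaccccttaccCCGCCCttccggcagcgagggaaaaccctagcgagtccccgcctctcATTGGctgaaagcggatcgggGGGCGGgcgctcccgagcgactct
Srebf2 (chr15:82147019-82147268, plus strand): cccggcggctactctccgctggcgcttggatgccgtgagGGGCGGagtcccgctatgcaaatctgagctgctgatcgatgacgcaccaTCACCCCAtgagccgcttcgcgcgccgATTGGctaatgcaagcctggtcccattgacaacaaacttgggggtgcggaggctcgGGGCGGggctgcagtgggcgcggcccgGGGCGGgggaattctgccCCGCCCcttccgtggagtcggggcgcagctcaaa
Lss (chr10:76531355-76531604, plus strand): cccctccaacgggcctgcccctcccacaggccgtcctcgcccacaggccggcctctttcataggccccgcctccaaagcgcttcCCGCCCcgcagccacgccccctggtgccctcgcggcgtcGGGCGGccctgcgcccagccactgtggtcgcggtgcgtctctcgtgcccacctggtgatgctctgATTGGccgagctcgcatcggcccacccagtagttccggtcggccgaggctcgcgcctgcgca
Cyp51 (chr5:4104698-4104947, minus strand): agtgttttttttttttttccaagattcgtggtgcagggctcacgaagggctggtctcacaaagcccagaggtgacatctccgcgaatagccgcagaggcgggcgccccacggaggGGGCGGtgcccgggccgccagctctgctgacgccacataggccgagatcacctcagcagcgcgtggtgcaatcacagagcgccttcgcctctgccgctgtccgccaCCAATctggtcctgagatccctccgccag
The letters searched on both strands were TCACCCCA (the core of a sterol element), CCAAT and GGGCGG. The core lay at position -137 of Hmgcs1 and at -162 of Srebf2, counted from the start site, and it was found in 1.54% of 27025 genes with a sequence in any of their windows. Of 22 pathway genes, the 21 enzyme genes and Srebf2, 17 had a sequence, Sqle not among them. CCAAT stood in 16 of the 17 (37.5% of all genes) and GGGCGG in 16 of the 17 (35.4% of all genes). All 6 of the described genes that could be matched held both. These are matches of exact letters and do not show binding. The shares of all genes cover every gene with a sequence, whether expressed in skin or not. Variants of the core were not searched, so a window without it is not shown to lack a sterol element.

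The labels were checked first with Npy, which had 5 to 15 counts in wild-type libraries and 10394 to 11864 counts in NPY-tet libraries. Total counts were 31370433 to 47495565 in wild-type and 32694123 to 35953372 in NPY-tet libraries. The libraries fell apart by their ribosomal RNA, for which genes annotated as rRNA and as mitochondrial rRNA were counted together. It took 6.54% to 8.13% of the counts in 5 libraries (wild-type replicates 1, 2, 3 and 5 and NPY-tet replicate 1, called rRNA-rich here). In 3 libraries it took 0.0398% to 0.0759% (NPY-tet replicates 2 and 3 with wild-type replicate 4, called rRNA-poor). The labels do not give this split. Expression is given below as CPM (the gene's read count relative to the library's total count, scaled by the TMM factors of edgeR). The markers of basal keratinocytes, sebocytes, adipocytes, fibroblasts and muscle each reached at least 1 CPM in every library. NPY-tet replicate 1 stood apart in the summed fibroblast markers, at 2430 CPM there and 10200 to 25100 CPM in the other 7 libraries. Not every marker of the list went with the sum. Over the rRNA-rich libraries, NPY-tet replicate 1 among them, Col1a1 ranged from 423 to 9150 CPM. Dcn ranged only from 1000 to 1170 CPM and Pdgfra from 61.5 to 80.8 CPM in those libraries.

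None of the 7 genes differed between the genotypes beyond the spread of the mice. By the quasi-likelihood test of edgeR with Benjamini-Hochberg adjustment over 18495 genes, 0 of the 7 passed an adjusted p of 0.05 (adjusted p 0.808 to 0.901), as against 0.00541% of all genes, which is Npy alone. At an unadjusted p under 0.05 there were 0 of 7 in either direction, where 5.98% of all genes lay (2.43% higher and 3.55% lower in NPY-tet). By DESeq2, which called 0.369% of the genes it adjusted, 0 of the 7 passed as well. The same held for limma-voom, run with quality weights for the libraries, which called 0.0162%. Without adjustment limma-voom put 2 of the 7 under 0.05, Hmgcs1 and Idi1, both fitted higher, beside 2242 of 18495 genes in either direction. Of the 7 fitted log2 fold changes (NPY-tet over wild-type) 4 lay above 0 and 3 below, with a median of 0.16 beside 0.004 over all genes tested. The groups overlapped for each of the 7, whereas they did not overlap for 3.78% of all genes.

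Hmgcs1 (ENSMUSG00000093930, mm39 chr13:120151915-120169796, plus strand) encodes the cytosolic enzyme that makes HMG-CoA on the way to mevalonate. It stood at 97.0, 125, 134, 136 and 133 CPM in wild-type replicates 1 to 5 and at 129, 169 and 133 CPM in NPY-tet replicates 1 to 3. NPY-tet replicate 2 was the highest library and wild-type replicate 1 the lowest, with the other 6 close together. This gave a log2 fold change of 0.20 (SE 0.15, 95% interval -0.12 to 0.53; edgeR adjusted p = 0.813), and of 0.07 without NPY-tet replicate 2. Idi1 (ENSMUSG00000058258, chr13:8935537-8942487, plus strand) encodes the isomerase that interconverts the isoprenoid building units. Its levels were 16.1, 18.2, 17.8, 17.9 and 20.8 CPM in the wild-type mice and 15.6, 33.0 and 19.2 CPM in NPY-tet replicates 1 to 3. A single library, NPY-tet replicate 2, was well above the rest, and NPY-tet replicate 1 was just below the lowest wild-type mouse. The log2 fold change of 0.32 (SE 0.21, interval -0.15 to 0.78; edgeR adjusted p = 0.808) was the farthest from 0 of the 7, and it was -0.06 without NPY-tet replicate 2.

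Sqle (ENSMUSG00000022351, chr15:59186926-59203041, plus strand) encodes squalene epoxidase, which puts the first oxygen into the sterol path. It stood at 94.2, 95.6, 85.3, 114 and 94.5 CPM in the wild-type mice and at 58.0, 100 and 99.8 CPM in NPY-tet mice. NPY-tet replicate 1 lay far below every other library, while NPY-tet replicates 2 and 3 lay inside the wild-type range. The fit put the log2 fold change at -0.17 (SE 0.18, interval -0.56 to 0.22; edgeR adjusted p = 0.856), and 0.05 without NPY-tet replicate 1. Lss (ENSMUSG00000033105, chr10:76367422-76392972, plus strand) encodes lanosterol synthase, which closes the rings. Its levels were 52.1, 53.3, 53.3, 64.0 and 55.5 CPM in the wild-type mice and 33.6, 84.0 and 69.1 CPM in NPY-tet mice. Both ends of the range were thus NPY-tet libraries, replicate 1 below and replicates 2 and 3 above all wild-type mice. Its log2 fold change was 0.16 (SE 0.24, interval -0.36 to 0.68; edgeR adjusted p = 0.901), with -0.11 without NPY-tet replicate 2 and 0.47 without NPY-tet replicate 1.

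Cyp51 (ENSMUSG00000001467, chr5:4131145-4154746, minus strand) encodes the lanosterol demethylase, the target of azole drugs in its fungal form. It had 93.9, 103, 112, 116 and 110 CPM in the wild-type mice and 77.8, 156 and 125 CPM in NPY-tet mice, in the same order of NPY-tet libraries as Lss. The log2 fold change was 0.16 (SE 0.19, interval -0.25 to 0.57; edgeR adjusted p = 0.872), with -0.07 without NPY-tet replicate 2 and 0.40 without NPY-tet replicate 1. Without that mouse 3 of the 7 genes, Idi1, Lss and Cyp51, had an unadjusted p under 0.05, all fitted higher, as had 3.3% of all genes in either direction, and by edgeR their adjusted p was 1. The annotated Cyp51 overlaps Akap9 on the other strand by 166 bases, and the libraries do not keep the strand, so reads there cannot be assigned. Dhcr7 (ENSMUSG00000058454, chr7:143376882-143402147, plus strand) encodes the 7-dehydrocholesterol reductase, a late step, whose substrate is also the precursor of vitamin D in the epidermis. Its levels were 130, 95.8, 97.5, 150 and 124 CPM in the wild-type mice and 98.3, 91.1 and 133 CPM in NPY-tet mice. Here NPY-tet replicate 2, the highest library for 4 of the other genes, was the lowest of all 8. The fitted difference was -0.15 on the log2 scale (SE 0.18, interval -0.55 to 0.24; edgeR adjusted p = 0.873), with -0.33 without NPY-tet replicate 3 and -0.05 without wild-type replicate 4. Srebf2 (ENSMUSG00000022463, chr15:82031382-82089580, plus strand) stood at 232, 183, 180, 248 and 214 CPM in the wild-type mice and at 148, 193 and 235 CPM in NPY-tet mice, lowest in NPY-tet replicate 1 and highest in wild-type replicate 4. Its log2 fold change was -0.14 (SE 0.17, interval -0.52 to 0.24; edgeR adjusted p = 0.878), and 0.02 without NPY-tet replicate 1.

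**Figure D1:**
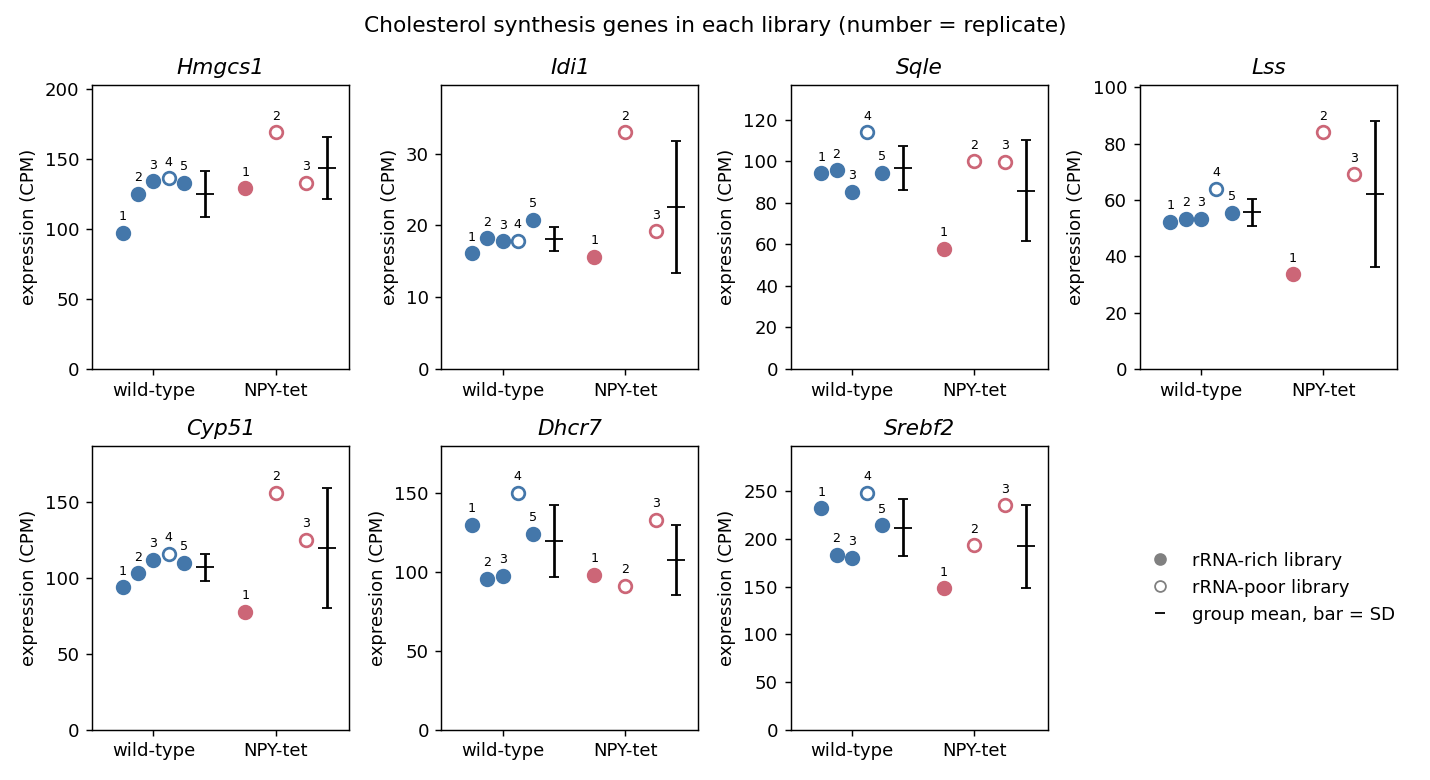
Expression of each of the 7 genes in CPM (y axis, from 0) in the 5 wild-type and 3 NPY-tet libraries, numbered by replicate, with the group mean and SD to the right of the points; open circles are the 3 rRNA-poor libraries. Within each gene the groups overlap, and NPY-tet replicate 1 is the lowest library for 5 of the 7.

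The intervals limit how large a genotype difference could be for each gene only under the fit with genotype alone. Within the rRNA-rich libraries, with 1 NPY-tet mouse, the fitted values of Sqle, Idi1, Lss and Cyp51 given below lay under their intervals. The intervals thus do not allow for the ribosomal RNA split. Taken as ratios, they ran from 0.678 to 1.17 for Sqle, the lowest lower bound, and from 0.904 to 1.71 for Idi1, the highest upper bound. NPY-tet replicate 2 was the highest library for 4 of the 7 genes and wild-type replicate 4 for 3, while NPY-tet replicate 1 was the lowest for 5. No test was made of the spread, which is described here. The coefficient of variation was higher in NPY-tet for 7 of 7 genes, as it was for 46.9% of all genes tested. So it was for 12 of the other 15 enzymes of the pathway and 4 of 6 SREBP regulators. The same held for 6 of 6 genes of sterol uptake and transport and 6 of 8 of the oxysterol receptors (LXR), efflux and esterification. The median coefficient over the 7 was 11% for the wild-type mice against 28.2% for the NPY-tet mice (19.1% and 19.3% over all genes). For Idi1, Lss and Cyp51 the NPY-tet range enclosed the wild-type range, a pattern that 9.38% of all genes had, and the wild-type range enclosed the NPY-tet range for 0 of the 7 (32.1% of all genes). With 3 mice, replicates 1 and 2 are the extremes of the NPY-tet range in these genes. Replicate 1 is rRNA-rich and replicate 2 rRNA-poor, and the part of the ribosomal RNA split in the spread was not tested.

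Per gene length, on the authors' FPKM scale, which divides fragments by gene length and library size, the levels over all 8 mice were 28.4 ± 4.24 for Hmgcs1, 28.1 ± 4.68 for Srebf2, 25 ± 5.2 for Cyp51, 19.5 ± 3.75 for Dhcr7, 16.5 ± 2.92 for Sqle, 5.60 ± 1.57 for Idi1 and 5.32 ± 1.35 for Lss (mean ± SD, n = 8). Hmgcs1 was above Srebf2 in 4 of 8 libraries and Idi1 above Lss in 5 of 8, so these neighbours did not separate. Srebf2 was above Cyp51 in 6, Cyp51 above Dhcr7 in 7 and Dhcr7 above Sqle in 6 of 8, with overlapping ranges. Only between Sqle (10.3 to 20.5 FPKM) and Idi1 (4.41 to 9.30 FPKM) was there a gap without overlap among neighbours in this order. The lengths behind the FPKM range from 3505 bases for Idi1 to 10787 bases for Lss, and a gene whose skin transcript is shorter than the length used has its level understated.

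The 7 genes followed each other from library to library in part. Of 21 pairs, 4 passed an adjusted p of 0.05 by Pearson's r of log2 CPM over the 8 mice (exact permutation tests over all pairings, two-sided, Benjamini-Hochberg over the 21). Lss and Cyp51 were the closest (r = 0.96, exact permutation p = 0.00062, adjusted p = 0.0130; Spearman's rho = 0.98, exact p = 0.000397, adjusted p = 0.00833). Without NPY-tet replicates 1 and 2, the libraries farthest from the median of Lss, r was 0.84. Idi1 and Cyp51 (r = 0.86, exact permutation p = 0.00372, adjusted p = 0.0349; rho = 0.74, exact p = 0.0458, adjusted p = 0.120) fell to 0.60 without the same 2 mice (exact permutation p = 0.186), and the relation rests on them. Sqle and Srebf2 (r = 0.85, exact permutation p = 0.00499, adjusted p = 0.0349; rho = 0.71, exact p = 0.0576, adjusted p = 0.134) fell to 0.44 without NPY-tet replicate 1 and wild-type replicate 4, on which that relation rests. Dhcr7 and Srebf2 (r = 0.85, exact permutation p = 0.009, adjusted p = 0.0473; rho = 0.76, exact p = 0.0368, adjusted p = 0.110) had r = 0.89 without NPY-tet replicate 2 and wild-type replicate 4.

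Within the 5 rRNA-rich libraries r was 0.92 for Lss and Cyp51, 0.81 for Idi1 and Cyp51, 0.84 for Sqle and Srebf2 and 0.85 for Dhcr7 and Srebf2. NPY-tet replicate 1 is among these libraries, so the values are not free of that mouse. Within the 5 wild-type mice, replicate 4 included, r was 0.70, 0.57, 0.76 and 0.99 in the same order. The 3 rRNA-poor libraries are too few for a value. The transcription factor gene and the enzyme genes did not all move as 1 group: r between Srebf2 and Hmgcs1 was -0.20 (exact permutation p = 0.671, adjusted p = 0.774) and between Dhcr7 and Hmgcs1 -0.38 (exact permutation p = 0.418, adjusted p = 0.586). Against the mean of the other 6 genes, Lss had the highest r (0.96), then Cyp51 (0.90) and Sqle (0.82), and Dhcr7 the lowest (0.15).

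**Figure D2:**
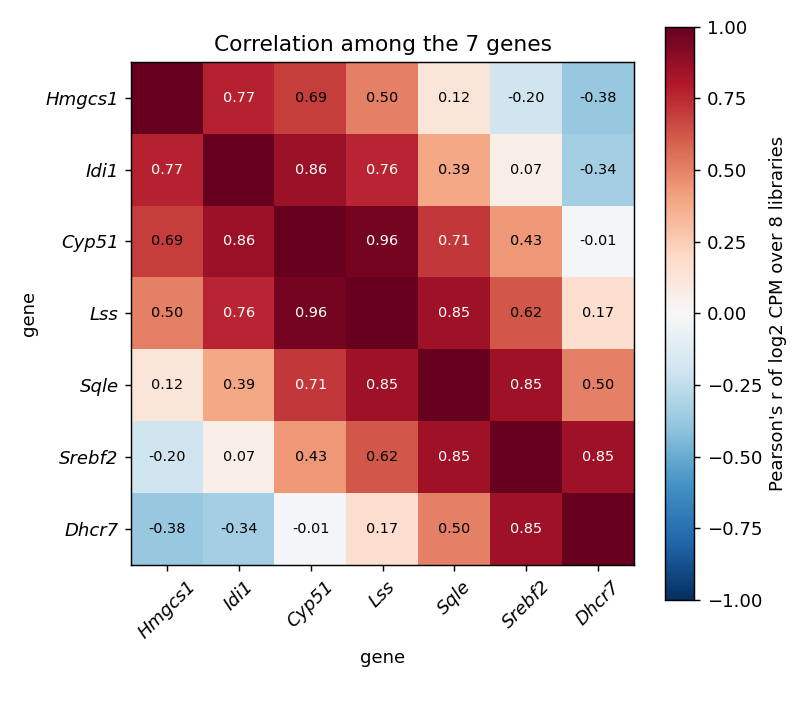
Pearson's r of log2 CPM over the 8 libraries for each pair of the 7 genes (both axes are genes, colour is r). Idi1, Cyp51 and Lss form a block of 0.76 to 0.96, and Dhcr7 stands out with 0.85 to Srebf2 but -0.38 to Hmgcs1.

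The levels also went with the ribosomal RNA content of the libraries. Sqle (99.8 to 114 against 58.0 to 95.6 CPM), Lss (64.0 to 84.0 against 33.6 to 55.5 CPM) and Cyp51 (116 to 156 against 77.8 to 112 CPM) were higher in each of the 3 rRNA-poor than in each of the 5 rRNA-rich libraries. This is 3 of 7 genes, where 1.22% of all genes had that order, and 0 of 7 had the opposite order (1.24% of all genes). Among the other enzymes Acat2, Pmvk, Mvd and Msmo1 had it too, 4 of 15. The mean of the 7 centred log2 levels was 0.15 to 0.28 in the rRNA-poor libraries and -0.41 to 0.05 in the rRNA-rich ones. Since 2 of the 3 NPY-tet but 1 of the 5 wild-type libraries are rRNA-poor, the split overlaps with genotype in part.

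With the ribosomal RNA set as a term of the fit, 0 of the 7 genes passed (0.0595% of all genes) and the median log2 fold change was -0.24 in place of 0.16. Lss went to -0.24 and Cyp51 to -0.10, and Sqle to -0.45 (edgeR adjusted p = 0.367). Of the 7, Sqle alone had an unadjusted p under 0.05 in that fit, beside 1874 of 18495 genes in either direction. Within the rRNA-rich libraries, 1 NPY-tet against 4 wild-type mice, the log2 fold changes were -0.65 for Sqle, -0.65 for Lss, -0.41 for Cyp51 and -0.20 for Idi1. Within the rRNA-poor ones, 2 NPY-tet mice against 1, they were -0.20, 0.24, 0.26 and 0.53. For the last 3 genes the sign thus depended on the set. Each arm of 1 mouse is assumed to vary like the other group, and 0 of the 7 passed in either set (adjusted p at least 0.159), where the share of all genes that passed was 1.66% among rRNA-rich libraries and 1.17% among rRNA-poor ones. In the rRNA-rich set 2 of the 7, Sqle and Lss, had an unadjusted p under 0.05, both lower in the NPY-tet mouse, as had 12.3% of all genes in either direction. The rRNA-rich value rests on NPY-tet replicate 1, the mouse with the low sum of fibroblast markers, and the part of that in the result was not tested.

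Of the other 15 enzymes of the pathway 0 passed by edgeR over all genes in either direction, with 10 fitted values above 0 and 5 below and a median log2 fold change of 0.03. Sc5d, the desaturase just before Dhcr7, had 42.4 to 56.2 CPM in the wild-type mice and 29.4, 40.6 and 45.2 CPM in NPY-tet mice (log2 fold change -0.36, SE 0.16; edgeR adjusted p = 0.795; -0.19 without NPY-tet replicate 1). The methyl oxidase gene Msmo1 stood at 147 ± 14.5 and 180 ± 49.4 CPM in the wild-type mice and NPY-tet mice, and the sterol reductase and lamin receptor gene Lbr at 32.6 ± 3.54 and 36.8 ± 4.74 CPM. The mevalonate kinase gene Mvk had 52.3 ± 7.67 and 43.5 ± 17.1 CPM and the C4-demethylation dehydrogenase gene Nsdhl 27.1 ± 1.81 and 24.1 ± 7.03 CPM (mean ± SD, n = 5 and n = 3). In Mvk and Nsdhl NPY-tet replicate 1 was again the lowest library, at 24.9 and 16.4 CPM. Few reads were assigned to Fdps, 3.77 ± 1.71 CPM in wild-type mice, and whether reads were lost to similar sequences was not tested.

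**Figure D3:**
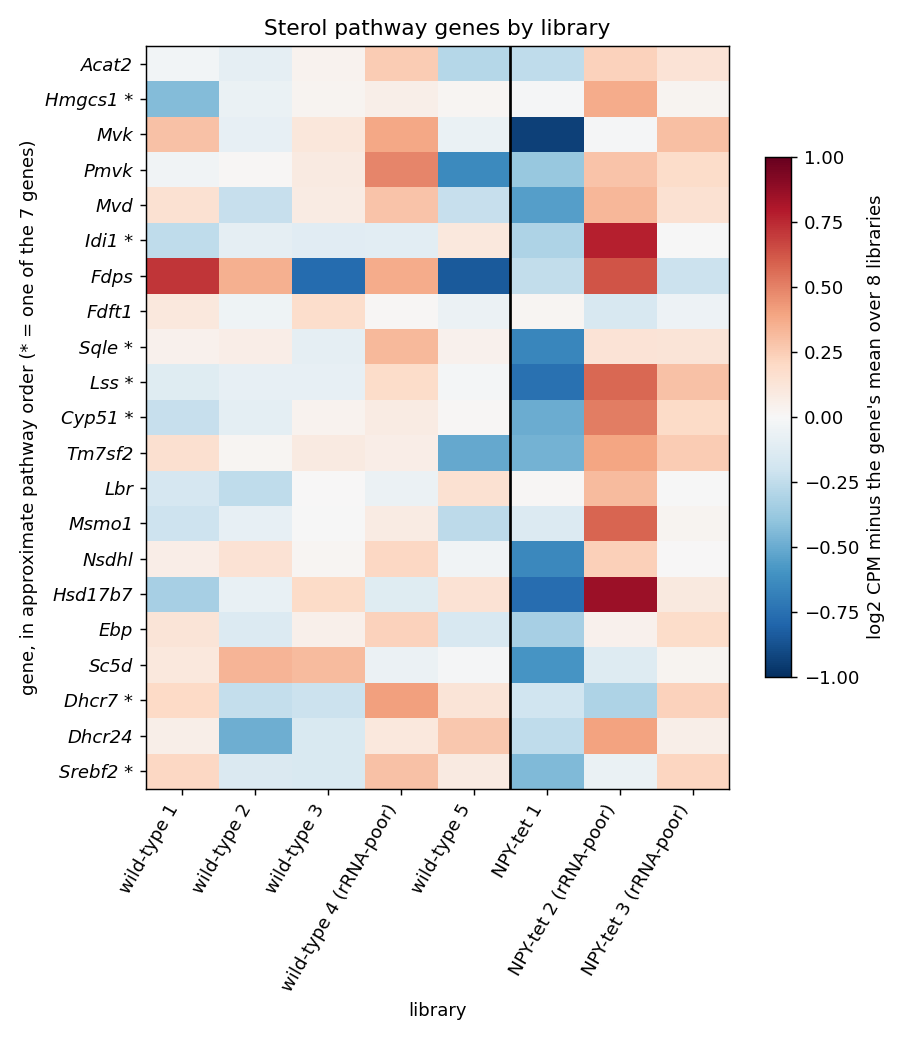
Log2 CPM minus the gene's mean over the 8 libraries (colour) for enzyme genes of the pathway and Srebf2 (rows, in approximate pathway order, the 7 genes starred) in each library (columns, wild-type left of the line). NPY-tet replicate 1 is mostly blue (low) and NPY-tet replicate 2 mostly red (high), with Fdft1, Sc5d and Dhcr7 among the genes below their mean in replicate 2.

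The proteins that control SREBP-2 showed 0 of 6 genes past the threshold (3 fitted values above 0 and 3 below, median -0.04). Insig1, which retains the SREBP complex and is itself a target of SREBP-2, had 80.1, 77.5, 76.5, 81.5 and 82.4 CPM in the wild-type mice and 45.9, 63.3 and 73.6 CPM in NPY-tet mice. All NPY-tet mice lay below all wild-type mice, as they did for 1.98% of all genes. Its log2 fold change was -0.39 (SE 0.15; edgeR adjusted p = 0.791), with -0.21 without NPY-tet replicate 1. Srebf1, the paralogue that mainly drives fatty acid synthesis, stood at 273 ± 40.5 and 203 ± 71.1 CPM (log2 fold change -0.43, SE 0.22; edgeR adjusted p = 0.796), with -0.20 without NPY-tet replicate 1 and -0.71 without NPY-tet replicate 3. Insig2, the paralogue of Insig1, had 50.6, 65.4, 60.1, 50.8 and 69.5 CPM in the wild-type mice and 86.4, 81.1 and 56.4 CPM in NPY-tet mice, with replicates 1 and 2 above the wild-type range (log2 fold change 0.33, SE 0.16; edgeR adjusted p = 0.795).

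Of the 6 genes of sterol uptake and transport 0 passed (2 fitted values above 0, 4 below, median -0.18). Npc1 and Npc2 move cholesterol out of lysosomes. Npc1 stood at 69.0 to 91.7 CPM in the wild-type mice and at 147, 89.6 and 89.1 CPM in NPY-tet mice, high in replicate 1 and within the wild-type range in the other 2 (log2 fold change 0.41, SE 0.17; edgeR adjusted p = 0.795; 0.13 without NPY-tet replicate 1). Npc2 stood at 293 ± 54.4 and 227 ± 63.8 CPM.

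Of the 8 genes of the oxysterol receptors (LXR), sterol efflux and esterification 0 passed (4 fitted values above 0, 4 below, median 0.03). Soat1, which esterifies cholesterol for storage, had 63.4 ± 5.09 and 77.9 ± 17.8 CPM, and the LXR-alpha gene Nr1h3 40.7 ± 7.97 and 33.4 ± 9.19 CPM. Lpcat3, a phospholipid-remodelling enzyme and LXR target, had 72.9 to 92.4 CPM in the wild-type mice and 92.4 to 99.6 CPM in NPY-tet mice, every NPY-tet value above the wild-type ones though the nearest pair is equal to the digits shown, as for 1.81% of all genes (log2 fold change 0.18, SE 0.12; edgeR adjusted p = 0.808).

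**Figure D4:**
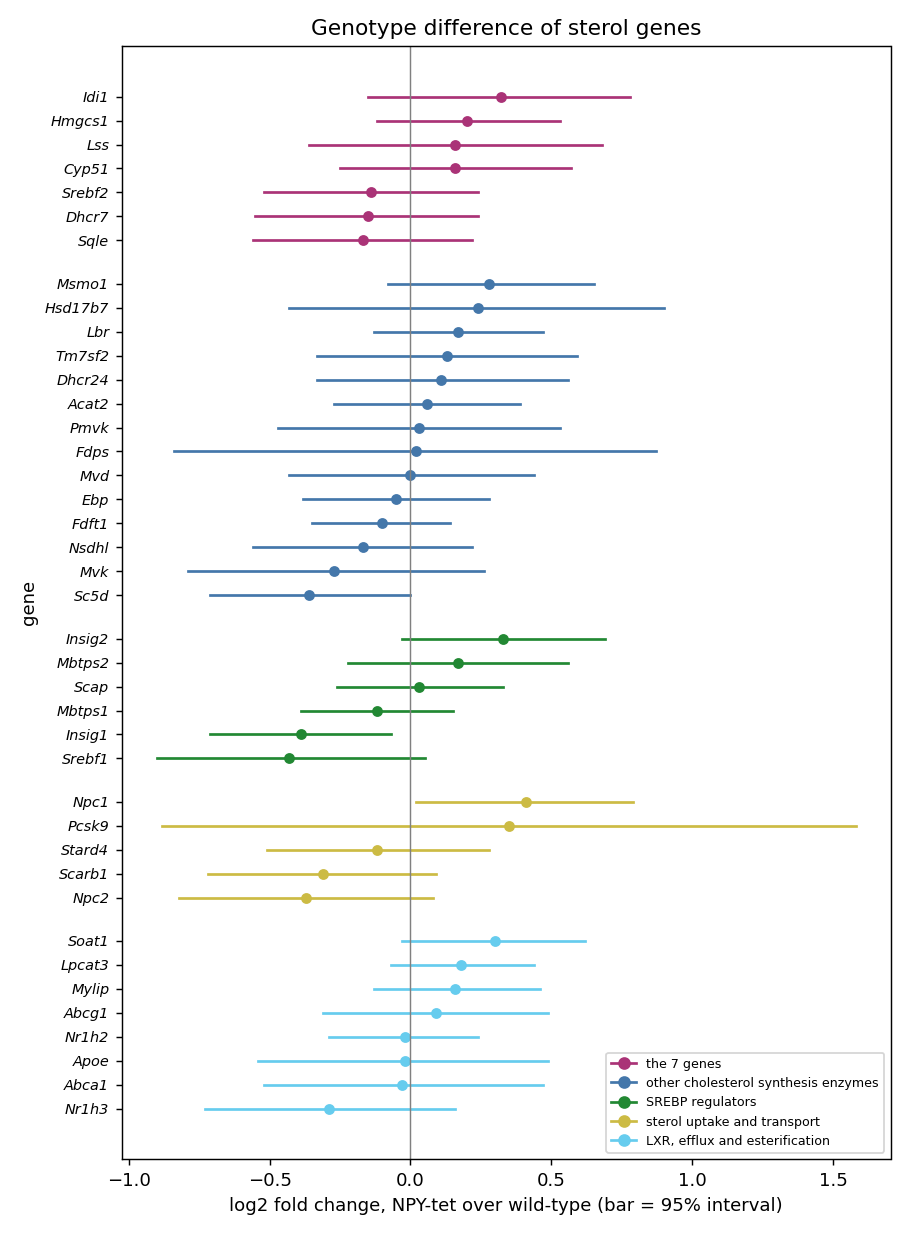
Log2 fold change of NPY-tet over wild-type (x axis; point, with its 95% interval as a bar) for the 7 genes and other sterol genes, coloured by list. The intervals of the 7 genes all include 0; those of Npc1 and Insig1 do not, before adjustment over all genes.

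Srebf2 also hosts a microRNA gene, Mir33, in an intron on the same strand. miR-33 is known to repress Abca1 and Npc1, which move cholesterol. Its mature forms are printed because they come from the same primary transcript as Srebf2, with the seed (bases 2 to 8) in capitals, from RefSeq in GRCm38.p6.
mmu-miR-33-5p (chr15:82198127-82198147, plus strand): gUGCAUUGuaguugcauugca
mmu-miR-33-3p (chr15:82198167-82198188, plus strand): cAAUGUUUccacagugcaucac
The 2 forms do not share a seed. Mir33 is listed with 0 counts in every library, and libraries made by poly-A selection do not measure the short mature forms. Abca1 stood at 86.7 ± 18.2 CPM in the wild-type mice and 85.0 ± 27.7 CPM in NPY-tet mice (log2 fold change -0.03, SE 0.23; edgeR adjusted p = 0.988).

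Likeness was ranked over 11430 genes, those averaging 5 CPM or more after predicted genes, clones and pseudogenes were left out. The 8 whose log2 CPM followed the mean of the 7 genes most closely over the 8 libraries were Defb8, Acoxl, Rfc2, Dnmt1, Mt4, Nme1, Rcc1 and Rcn1 (Pearson's r 0.918 to 0.938, Spearman's rho 0.83 to 0.98). The choice is unstable: with any 1 library left out, 0 to 5 of the 8 were still among the first 8, and it was 0 without NPY-tet replicate 1 and 0 without NPY-tet replicate 2. Of the other enzymes with a rank, 11 of 14 had an r above 0.5, as had 10.1% of all ranked genes, and their median r was 0.66. Mvd and Nsdhl had the highest r among them (0.82 each), and Fdft1, squalene synthase, went against the rest (-0.53). The uptake genes were mixed, with 2 of 5 above 0.5 and a median of 0.17. Stard4, a sterol carrier, reached 0.85 (rho 0.62), whereas Npc1 had -0.52 (rho 0.07) and Scarb1, a lipoprotein receptor, -0.45 (rho -0.24). Of the LXR, efflux and esterification genes 0 of 8 were above 0.5 and the median was -0.33. The lowest values were those of the sterol exporter Abcg1 (-0.86, rho -0.57) and Mylip (-0.78, rho -0.62). Both were highest in NPY-tet replicate 1, at 48.8 and 64.9 CPM, against at most 34.9 and 49.7 CPM in the other libraries. The SREBP regulators had a median of 0.29, with 1 of 6 above 0.5.

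Cell type markers were set beside these levels. Of the 6 fibroblast markers 5 had an r above 0.5 with the mean of the 7 genes (median 0.78), as had 4 of 4 proliferation markers (median 0.69). Pdgfra, the remaining fibroblast marker, had -0.40. NPY-tet replicate 1 was lowest in both sums and in the mean of the 7 genes (-0.41). Above 0.5 were also 2 of 5 basal (median 0.28) and 2 of 6 differentiated keratinocyte markers with a rank (median 0.28). Of the skeletal muscle markers 1 of 7 was (median -0.17), and of all ranked genes 10.1%. The proliferation markers summed to 27.4 to 68.0 CPM in the wild-type mice and to 19.4, 73.4 and 32.5 CPM in NPY-tet mice. The sebocyte markers summed to 596 to 757 CPM in the wild-type mice and 756 to 926 CPM in NPY-tet mice, with 7 of 7 fitted values above 0, none past the threshold, and a median log2 fold change of 0.62; their median r with the 7 genes was 0.09. White adipocyte markers summed to 4520 to 7890 and 2740 to 6600 CPM, with 8 of 8 fitted values below 0, none past the threshold, and a median log2 fold change of -0.65 (median r 0.19). Macrophage markers summed to 570 to 862 and 370 to 629 CPM, with 6 of 6 fitted values below 0, none past the threshold, and a median of -0.42 (median r -0.23). Hair shaft and root sheath markers summed to 4.56 to 3790 and 262 to 2560 CPM (median r 0.07). The part of these cells in the levels of the 7 genes was not tested.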

How the data were processed

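RNA from whole skin of 5 wild-type and 3 NPY-tet mice was selected with poly-T beads and made into libraries that keep no strand, per the labels. In the deposited files each Ensembl gene has whole-number counts. Judged by its values, the deposited FPKM table holds those counts divided by the gene length in the file and by a library size that is constant within a column. The build mm39 and the tools DESeq2 1.20.0, featureCounts 1.5.0-p3, HISAT2 2.0.5 and CASAVA are named per the submitters' processing notes, without their roles; the annotation release is not given in the sources used here. Columns were joined to mice by the numbers in the titles; for samples 3 to 8 the number in the description's library name is 1 higher, at an equal genotype.

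Counts were tested with edgeR 4.0.16 in R 4.3.3 (filterByExpr, TMM, robust quasi-likelihood fit, genotype only, adjusted p under 0.05). All 7 genes passed the filter. The SE was taken as the absolute log2 fold change over the root of F, and intervals (95%) use the test's degrees of freedom. Log2 CPM carried a prior count of 2. Each library is 1 mouse; depth sets the counting error only. The members and lists were chosen with earlier results of these data known. The text names the 7 genes, 5 other enzymes chosen by the smallest p, Insig1 and Srebf1, 2 uptake genes chosen likewise, 3 LXR or efflux genes with the smallest p, and the 8 genes most like the 7, leaving out predicted genes, clones and pseudogenes. Some genes that the rule names are not reported here, though the lists' counts and medians hold them. Other genes were named after their values were seen. The procedures were tested on simulated data. Alternatives were other size factors and filters, DESeq2 1.42.0 and limma 3.58.1. The limma runs were voom with quality weights for the libraries, and log2 FPKM with pseudocounts of 1 and 0.1. Further alternatives were the replicate number as a block, the ribosomal RNA set (boundary 1% of counts) and each library left out.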

Additional observations from a re-analysis of the deposited data

Results flagged for a closer look

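In 2 of the 42 sterol genes 1 wild-type library lay far from the other 4 by Dixon's criterion, which chance alone meets in about 1 of 20 groups. Lss had 64.0 CPM in wild-type replicate 4, an rRNA-poor library, and 52.1 to 55.5 CPM in the others. Tm7sf2, a sterol reductase gene, had 10.7 CPM in wild-type replicate 5 and 15.5 to 17.1 CPM in the others.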

How the results depend on the processing

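Under every alternative run, 0 of the 7 genes and 0 of the 35 other sterol genes passed the threshold, each library left out included (0 to 0). The count over all genes was 1 and became 21 with no filter on low counts, 68 by DESeq2, 3 by limma-voom, 2 by limma on log2 FPKM with either pseudocount, 11 with a covariate for the ribosomal RNA set, 332 when only rRNA-rich and 227 when only rRNA-poor libraries were fitted, and 1 to 8 with each library left out; the cause was not tested. The median of the 7 genes (0.16) went to -0.24 with the covariate and -0.41 in the rRNA-rich libraries, and ran from -0.07 to 0.28 with each library left out. Signs reversed for Lss (-0.24) and Cyp51 (-0.10) with the covariate, for Idi1 (-0.20), Lss (-0.65) and Cyp51 (-0.41) in the rRNA-rich libraries and for Sc5d (0.00) in the rRNA-poor ones. With each library left out the log2 fold change ran from -0.29 to 0.05 for Sqle, -0.06 to 0.53 for Idi1, -0.11 to 0.47 for Lss, -0.07 to 0.40 for Cyp51, -0.31 to 0.02 for Srebf2, -0.53 to 0.02 for Mvk and -0.36 to 0.05 for Nsdhl. Of the 8 most alike genes 0 to 5 were kept. Replicate numbers are shared by the groups without a stated pairing; deviations of same-numbered mice correlated at -0.04, -0.11 and 0.30, and not every mouse correlated best with its own number. With the replicate block 2 genes passed and 0 of the 7. With 3 NPY-tet mice the number of animals limits the precision, and the depth adds counting error only.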

Other observations

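Idi2, the paralogue of Idi1, had at most 7 counts in any library, and the processed copy Idi1-ps1 at most 19. Both were looked at after the values of Idi1 were seen.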
